A study of Arabidopsis thaliana with 6 samples.

Results

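The regulators of pigment and cell differentiation in the *Arabidopsis* seed coat were examined in *agl62* and WT seeds. They were taken as 7 named genes, *TT2* (AT5G35550), *TT8* (AT4G09820), *TTG1* (AT5G24520), *TT16* (AT5G23260), *TT1* (AT1G34790), *TTG2* (AT2G37260) and *GL2* (AT1G79840), listed by name, with earlier results of these data known. They were 7 of the 32678 genes in the deposited table, and all 7 had a mean above 10 normalized counts in both genotypes. The first genotype was *agl62*, which lacks the function of AGL62, a MADS-box protein known from the endosperm, and the samples carry the label *agl62*/-. According to the methods the seeds came from the rare plants that are homozygous for the mutation and set little viable seed, and the only allele in the list of mutants is *agl62*-2. A legend of the study calls the same data *agl62*/+ seeds. The other genotype was WT, and the strain behind these WT libraries is not given in the sources used here. Flowers of both genotypes were emasculated and pollinated by hand, whole seeds were taken 30 hr later, and mRNA was sequenced in 3 biological replicates per genotype.

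The seed coat grows from the integuments of the ovule, which are maternal tissue. Its innermost layer, the endothelium, makes proanthocyanidins, the colorless tannins that later turn the seed brown, and its outermost layer makes mucilage. In the endothelium TT2, an R2R3 MYB protein, TT8, a basic helix-loop-helix (bHLH) protein, and TTG1, a WD40 repeat protein, form the MYB-bHLH-WD40 complex, which turns on the late genes of the proanthocyanidin pathway. TT16 (also called ABS) is a MADS-box protein of the B-sister group, and TT1 is a zinc finger protein of the WIP family. Both are needed for a normal pigmented endothelium. TTG2 is a WRKY protein that acts in tannin and mucilage production, and GL2 is a homeodomain leucine zipper protein of the epidermis that promotes mucilage in the seed coat. Mutants of the *TRANSPARENT TESTA* (*TT*) genes have pale seeds.

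The table gives a single mean per genotype for each gene, in which the count of each library was divided by its size factor and the 3 libraries were averaged. No value of a single library and no spread between replicates could therefore be given, no test was made from the 2 means, and the authors' own comparison is not used here. The intervals are 95% intervals for counting error only, and they understate the error that replicates would show. The libraries, judged from the lowest means, had relative depths of 1.06 to 1.3 in *agl62* and 0.456 to 1.38 in WT, and the WT means are therefore the less precise ones for genes of like level. The 2 columns summed to 58421347 in *agl62* and 60412799 in WT. Of 24985 genes with reads, 6.79% had means that differed at least 2-fold, with 3.41% lower and 3.39% higher in *agl62*. *AGL62* itself (AT5G60440) averaged 1.81 normalized counts in *agl62* seeds, from 6 to 7 counts, and 410 in WT seeds, at least 137-fold lower in *agl62* against a floor of 3.

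The complex of TT2, TT8 and TTG1 is known to act on the promoters of *TT8* itself, of *DFR*, which makes leucoanthocyanidins, and of *BAN*, the anthocyanidin reductase of the endothelium. The 250 bases before the annotated start of these 3 genes are shown because they link the regulators to each other and to the pathway. They are read in the direction of transcription from the TAIR10.1 genome of RefSeq, at chr4:6181631-6181880 on the plus strand for *TT8*, chr5:17166033-17166282 on the minus strand for *DFR* and chr1:22792804-22793053 on the minus strand for *BAN*. Capitals mark E-boxes (CANNTG), the kind of site that bHLH proteins bind, and MYB core sites (CNGTTA or CNGTTG), searched on both strands.
TT8: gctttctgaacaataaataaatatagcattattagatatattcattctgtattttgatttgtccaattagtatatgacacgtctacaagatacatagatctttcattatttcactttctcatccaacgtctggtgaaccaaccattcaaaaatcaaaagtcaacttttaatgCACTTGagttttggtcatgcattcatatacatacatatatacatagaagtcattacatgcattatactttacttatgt
DFR: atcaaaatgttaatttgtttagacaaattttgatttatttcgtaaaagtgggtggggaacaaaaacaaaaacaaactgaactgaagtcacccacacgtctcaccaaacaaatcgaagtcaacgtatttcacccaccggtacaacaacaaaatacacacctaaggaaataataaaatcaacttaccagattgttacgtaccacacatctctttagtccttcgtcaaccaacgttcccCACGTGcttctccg
BAN: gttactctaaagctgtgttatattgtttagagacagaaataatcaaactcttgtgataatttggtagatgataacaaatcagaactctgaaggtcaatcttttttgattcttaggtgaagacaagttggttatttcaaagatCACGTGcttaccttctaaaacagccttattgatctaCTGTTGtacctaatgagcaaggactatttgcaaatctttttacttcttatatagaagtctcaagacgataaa
Counted back from the gene start, the first base of the E-box lay at -78 in *TT8*, at -14 in *DFR* and at -108 in *BAN*, and only *BAN* of these 3 had a MYB core site, at -72. An E-box stood in the window of 6 of the 7 regulators, all but *TT16*, and in 55.3% of the 27437 windows of the same length before annotated genes. A MYB core site was found for *GL2* alone, at -66, and in 40.7% of all windows. Both motifs match the letters CAGTTG and CAACTG, so 1 site can count as both. The W-box core (TTGAC), which WRKY proteins such as TTG2 bind, occurred before *TT8*, *TT1* and *TTG2* and in 44.9% of all windows. No regulator had a CArG-like site of MADS-box proteins, found in 17.5% of windows, or the L1 box (TAAATGCA or TAAATGTA) of homeodomain proteins like GL2, found in 4.49%. These are matches of the given letters in a short window and describe the sequence alone. Other binding sequences of these proteins were not searched for.

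*TT2*, the member of the complex that is most restricted to the endothelium, had a mean of 2750 normalized counts in *agl62* seeds and 3040 in WT seeds. The log2 ratio of *agl62* over WT was -0.145 (95% counting interval -0.189 to -0.1), and *agl62* seeds held 90.5% of the WT mean. Among the 7 regulators this was the ratio furthest from 0, but with the columns scaled to equal totals *TT2* stood at -0.096 and *TT8* at 0.106. *TT8*, the bHLH partner, had the higher mean in *agl62*, with 8400 in *agl62* seeds and 8070 in WT seeds and a log2 ratio of 0.058 (0.031 to 0.084). *TTG1*, which also serves trichomes, root hairs and mucilage with other MYB and bHLH partners, averaged 3860 in *agl62* seeds and 3780 in WT seeds. Its log2 ratio of 0.03 had a counting interval that included 0 (-0.009 to 0.069). The 3 parts of the complex were thus all present in both genotypes, and their means differed from WT by at most 9.54%. Since whole seeds were used, fewer cells of a type and less RNA per cell cannot be told apart in any of these means.

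**Figure D1:**
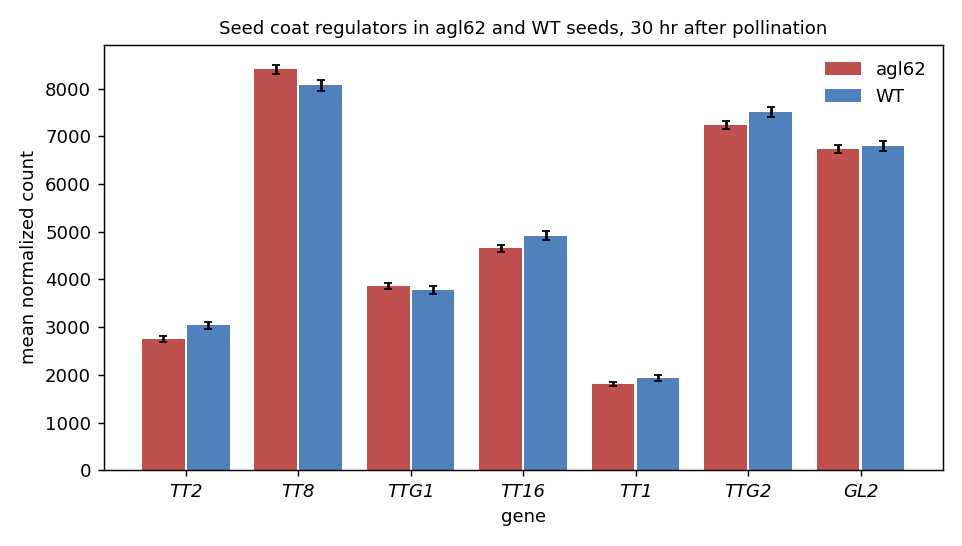
Mean normalized count of each regulator (vertical axis) in *agl62* seeds (left bar of each pair) and WT seeds (right bar), 30 hr after pollination. Error bars are 95% intervals for counting error only, with no replicate spread. The means run between 1800 for *TT1* and 8400 for *TT8* in *agl62* and between 1930 for *TT1* and 8070 for *TT8* in WT, and the bars of a pair are close in height for every gene.

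The pair of factors that shape the endothelium both had slightly lower means in *agl62*, by amounts within counting error when the columns were scaled to equal totals. *TT16* averaged 4650 normalized counts in *agl62* seeds and 4920 in WT seeds, a log2 ratio of -0.081 (-0.116 to -0.047). *TT1*, the regulator with the lowest mean, stood at 1800 in *agl62* seeds and 1930 in WT seeds, a log2 ratio of -0.101 (-0.156 to -0.045). Even for *TT1* the *agl62* mean rests on 5714 to 7031 counts and the WT mean on 2640 to 7975, depending on which libraries held them, and counting error is small beside the means.

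The regulators that act in the outer seed coat, *TTG2* and *GL2*, had means close to those of WT. *TTG2*, which is known to act downstream of MYB-bHLH-WD40 complexes, averaged 7240 normalized counts in *agl62* seeds and 7510 in WT seeds, a log2 ratio of -0.053 (-0.081 to -0.025). *GL2*, which such complexes activate in trichomes, averaged 6730 in *agl62* seeds and 6800 in WT seeds. Its log2 ratio of -0.015 (-0.044 to 0.014) turned to 0.033 when the columns were scaled to equal totals, where that of *TTG2* was -0.004. The annotated span of *GL2* overlaps a gene on the other strand, AT1G79850, by 198 bases (means of 1640 in *agl62* and 1490 in WT) and a long noncoding RNA on its own strand by 155 bases. How the reads in those stretches were assigned is not given in the sources used here.

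None of the 7 regulators differed 2-fold or 1.5-fold. Among all genes with reads 6.79% differed 2-fold and 13.6% differed 1.5-fold, genes with few counts included. A background of like level is the 10338 genes that averaged at least 1000 normalized counts, like all 7 regulators, and of those 0.609% differed 2-fold and 2.91% differed 1.5-fold, so that a count of 0 among 7 is what the background gives and is no property of the regulators. Of these abundant genes, 42% had a ratio further from 0 than *TT2*, 55.9% further than *TT1*, 63.4% further than *TT16*, 72.8% further than *TT8*, 75.2% further than *TTG2*, 85.4% further than *TTG1* and 92.5% further than *GL2*. The regulators therefore lay in the middle of the abundant genes, whose log2 ratios ran between -0.411 and 0.353 at the 5th and 95th percentiles around a median of -0.01. The *agl62* mean was lower for 5 regulators and higher for 2 (*TT8* and *TTG1*), or lower for 4 and higher for 3 with the columns scaled to equal totals. The counting interval excluded 0 for 5 of them, *TT2*, *TT8*, *TT16*, *TT1* and *TTG2*, and included it for *TTG1* and *GL2*. This list depends on the scaling, since with equal totals the interval excluded 0 for 4, *TT2*, *TT8*, *TTG1* and *GL2*, and included it for *TT16*, *TT1* and *TTG2*. Without that scaling the interval also excluded 0 for 10 of the 14 proanthocyanidin pathway genes. At such counts even small ratios exclude 0, and the share over all abundant genes was not computed. The median log2 ratio of the 7 was -0.053.

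**Figure D2:**
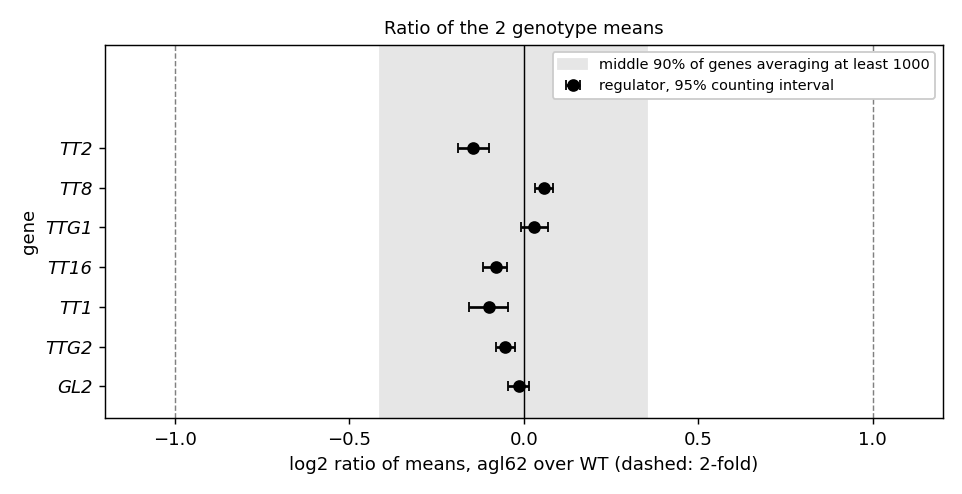
Log2 of *agl62* over WT means (horizontal axis) for each regulator (vertical axis), with 95% intervals for counting error only. The grey band spans the 5th to the 95th percentile of the 10338 genes averaging at least 1000 normalized counts, and the dashed lines mark 2-fold. All 7 points lie between -0.145 (*TT2*) and 0.058 (*TT8*), inside the grey band.

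A difference between the ratios of 2 regulators does not depend on how the columns are scaled. Of the 21 pairs of regulators, 14 had a difference whose counting interval excluded 0. The share among pairs of other abundant genes was not computed, and this count is not read as a property of the regulators. The median difference was 0.083 on the log2 scale. The widest was between the partners *TT8* and *TT2*, at 0.202 (0.151 to 0.254), which put the *TT8* to *TT2* ratio 15.1% higher in *agl62* seeds than in WT seeds. *TTG1* and *TT2* came next, with 0.175 (0.116 to 0.234). *TTG1* and *TT8* were closer, with a difference of 0.028 (-0.019 to 0.075). *TT16* and *TT1*, which act in the same cell layer, differed by 0.019 (-0.046 to 0.085). Within the complex the differences that involved *TT2* were thus the wider ones, judged by counting error alone and with no replicate check. The log2 ratios of abundant genes ran between -0.411 and 0.353 at the 5th and 95th percentiles. Of these genes, 42% had a ratio further from 0 than *TT2*, so the difference is not shown to be particular to *TT2*.

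Levels of different genes were compared per kilobase of the longest annotated transcript. *TT8* stood at 4190 ± 24.5 normalized counts per kb in *agl62* seeds and 4020 ± 29.4 in WT seeds (± counting error), and *TTG2* at 3900 ± 24.6 in *agl62* and 4050 ± 30.7 in WT. These were the highest of the 7, and their order swapped between the genotypes, although in WT they differed by less than the 95% counting error, which the other neighbours in the order exceeded. Next in both genotypes came *TT16*, with 3440 ± 27.1 in *agl62* seeds and 3640 ± 34.2 in WT seeds. *TT2* followed with 2400 ± 24.5 in *agl62* and 2650 ± 31.6 in WT, and *GL2* with 2320 ± 15.2 in *agl62* and 2350 ± 18.8 in WT. *TTG1*, which several complexes share, was lower, at 2110 ± 18.2 in *agl62* seeds and 2060 ± 22.1 in WT seeds. *TT1* was the lowest, at 1550 ± 19.5 in *agl62* and 1660 ± 24.9 in WT. Highest and lowest differed only 2.7-fold in *agl62* and 2.44-fold in WT. Against the 24932 genes with reads and a transcript length, the 7 levels lay between the percentiles 80.5 (*TT1*) and 94 (*TT8*) in *agl62* seeds and between 81.5 (*TT1*) and 93.5 (*TT8*, *TTG2*) in WT seeds. Inside the complex *TT2* stood at 0.573 of the *TT8* level in *agl62* and 0.659 in WT, and *TTG1* at 0.504 of it in *agl62* and 0.512 in WT. The order depends on the length used, since per kilobase of coding sequence *TT16* was the highest in *agl62* seeds, at 5760.

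The gene models differ in size. *TT2* (chromosome 5, 13726743 to 13727961, plus strand) has 2 exons in its longest transcript of 1146 bases, while *GL2* (chromosome 1, 30036956 to 30041440, plus strand) has 10 exons and 2895 bases. *TTG1* (chromosome 5, 8370317 to 8372847, minus strand) has 2 exons and 1831 bases, and *TT1* (chromosome 1, 12763902 to 12765686, plus strand) has 2 exons and 1160 bases. *TT16* (chromosome 5, 7835965 to 7838555, plus strand) has 7 exons and 1351 bases, *TTG2* (chromosome 2, 15644811 to 15647076, plus strand) 5 exons and 1856 bases, and *TT8* (chromosome 4, 6181881 to 6186523, plus strand) 7 exons and 2005 bases. Stretches of 100 bases that recur exactly at another place in the genome were found for *TT8* alone, 420 of 4544, and none of them in its exons.

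Most of the listed relatives of the regulators were scarce in both genotypes, whereas a few were about as abundant or more so. Among bHLH genes *EGL3*, a partner of MYB proteins in trichomes and root hairs, stood at 1180 normalized counts per kb in *agl62* seeds and 1410 in WT seeds, so that *TT8* was 3.55 times as high in *agl62* and 2.85 times in WT. *GL3*, the trichome bHLH gene, was listed at 0 in *agl62* and at 0.568 normalized counts in WT. Among MYB genes *MYB5*, which acts with TT2 in the seed coat, reached 2910 per kb in *agl62* seeds and 2310 in WT seeds, close to *TT2*, and *MYB61*, a mucilage regulator, reached 2690 in *agl62* and 2360 in WT. The trichome gene *GL1* was listed at 0 in both genotypes, and the anthocyanin genes *PAP1* and *PAP2* at no more than 0.326 normalized counts in either. *LWD1*, the WD40 relative of *TTG1* known from the circadian clock, had 2060 per kb in both *agl62* and WT seeds. In the WIP family *TT1* was 15 times as high as *WIP2* (*NTT*), the transmitting tract gene, in *agl62* and 24.5 times in WT. *TT16* was 45.9 times as high as its B-sister relative *GOA* in *agl62* seeds and 53.2 times in WT seeds. The other listed MADS-box genes all stood above *TT16*. They ran from *SHP1*, at 7360 per kb in *agl62* and 6700 in WT, to *STK*, at 23100 in *agl62* and 28500 in WT.

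**Figure D3:**
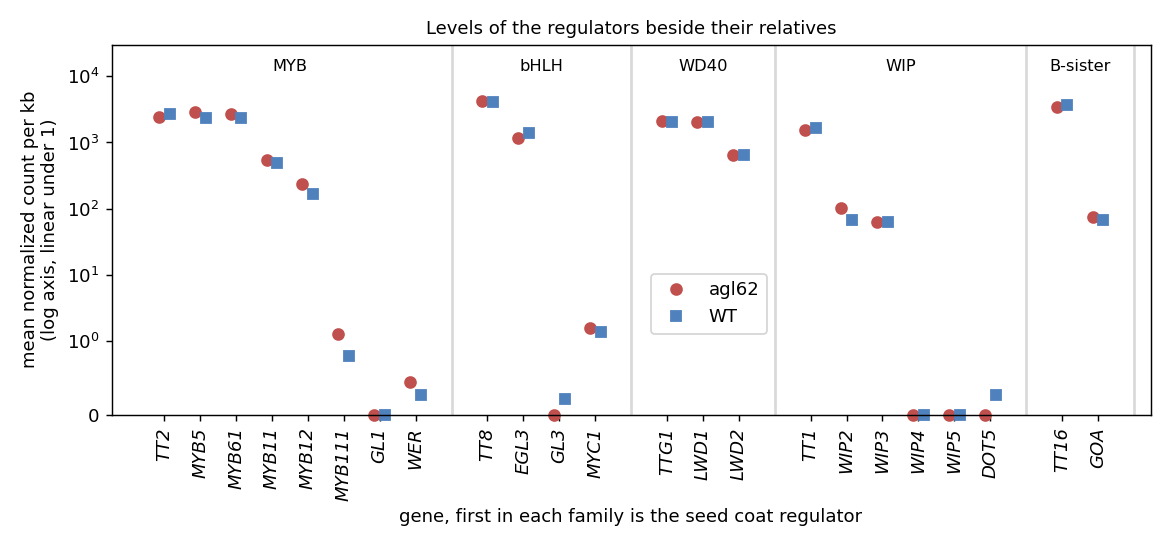
Level per kilobase of transcript (vertical axis, logarithmic and linear under 1) of 4 regulator families and the B-sister pair in *agl62* seeds (circles) and WT seeds (squares), 1 mean per genotype. The regulator is the first gene of each family. *TT8*, *TT1* and *TT16* top their families in both genotypes, *TTG1* is close to *LWD1*, and *TT2* is close to *MYB5* and *MYB61*.

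The most abundant genes that the regulators act on were close to their WT values, and some genes of lower level were further away. None of the 14 genes of the proanthocyanidin pathway differed 2-fold, beside 6.79% of all genes with reads and 0.609% of genes averaging at least 1000. A count of 0 among 14 is near what these backgrounds give. The median log2 ratio of the 14 was -0.053, against 0.009 over the 19264 genes with both means at least 10. *BAN* averaged 97300 normalized counts in *agl62* seeds and 96900 in WT seeds, a log2 ratio of 0.006 (-0.002 to 0.014). *DFR* averaged 46500 in *agl62* and 48600 in WT, a log2 ratio of -0.064. *TT4*, which encodes chalcone synthase at the entrance of the pathway, averaged 80900 in *agl62* and 84500 in WT, a log2 ratio of -0.063. These are the most abundant genes of the list, and with the columns as deposited none of the 3 ratios was further from 0 than that of *TT16*. With equal totals every ratio shifted by 0.048, *TT16* stood at -0.033 and *BAN* was further from 0 than *TT16*. Among the other late genes *LDOX*, the anthocyanidin synthase gene, averaged 40100 in *agl62* seeds and 42000 in WT seeds. *TT12*, the vacuolar transporter gene of the pathway, averaged 20700 in *agl62* and 19700 in WT, and *AHA10*, a proton pump gene, 40700 in *agl62* and 41700 in WT. *TT19*, also of the pathway, was further from WT, with 13900 in *agl62* and 15800 in WT (log2 ratio -0.185, -0.204 to -0.165). The ratios furthest from 0 were those of 3 enzyme genes, and they had both signs. Lower in *agl62* were *F3H*, with 571 in *agl62* seeds and 753 in WT seeds (log2 ratio -0.399, -0.492 to -0.306), and *TT5*, which encodes chalcone isomerase, with 12300 in *agl62* and 15000 in WT (-0.286, -0.307 to -0.266). *FLS1*, the flavonol synthase gene, was higher in *agl62*, with 1570 in *agl62* seeds and 1290 in WT seeds (0.283, 0.219 to 0.348), and with equal totals its ratio of 0.332 was further from 0 than that of *TT5* at -0.238. *F3H* lies over a noncoding gene on the other strand, AT3G51238, along 1588 bases, with means of 132 in *agl62* and 126 in WT. In all, 10 of the 14 means were lower and 4 higher in *agl62*, a split that became 7 and 7 with the columns scaled to equal totals.

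Among the 17 relatives of the complex members, 14 had reads and none differed 2-fold, beside 6.79% of all genes with reads, so that a count of 0 among 14 is near the background. Only 8 of the 14 had a mean above the floor of 3, and genes without one could not be counted as past 2-fold. The background includes such genes as well. Both means reached 10 for 7 of the relatives, with a median log2 ratio of 0.157, and 6 of these 7 were higher in *agl62* under both scalings. With the columns as deposited, 2 of the 6 had counting intervals that included 0. These were *LWD1* (log2 ratio 0.005, -0.04 to 0.05) and *LWD2* (0.013, -0.059 to 0.086). The share of higher means over all genes was not computed. The median over the 19264 genes with both means at least 10 was 0.009. *MYB12*, an activator of the early flavonol genes, had the largest ratio, with 379 normalized counts in *agl62* seeds and 259 in WT seeds (log2 ratio 0.549, 0.41 to 0.689). *MYB5* averaged 3890 in *agl62* seeds and 3090 in WT seeds, a log2 ratio of 0.332 (0.291 to 0.374), opposite in sign to *TT2*. Its span is overlapped along 1792 bases by AT3G13530 on the other strand, which averaged 18100 in *agl62* and 15700 in WT, and without strand the reads of the 2 genes cannot be told apart. *MYB61* averaged 4190 in *agl62* and 3680 in WT, a log2 ratio of 0.187 (0.149 to 0.226). *EGL3* was the only lower one, with 3010 in *agl62* seeds and 3590 in WT seeds (-0.254, -0.296 to -0.213), opposite in sign to *TT8*.

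The repressors that compete with the complex or silence its targets were split. Of the 9 genes, 7 had a mean above the floor of 3. Means that differed 2-fold were found for 1, beside 6.79% of all genes with reads. The 6 with both means at least 10 had a median log2 ratio of 0.066, with 3 higher and 3 lower in *agl62*. *MYBL2*, a MYB repressor that binds TT8, averaged 3480 normalized counts in *agl62* seeds and 2990 in WT seeds, a log2 ratio of 0.219 (0.176 to 0.262). *MYB4*, a repressor of phenylpropanoid genes, averaged 3020 in *agl62* and 3550 in WT, a log2 ratio of -0.233 (-0.275 to -0.192). The small single-repeat MYB proteins, which take the place of the activating MYB in the complex, were much less abundant. *CPC* averaged 428 in *agl62* seeds and 455 in WT seeds, *TCL1* 18.2 in *agl62* and 10.9 in WT, and *TRY* 15.7 in *agl62* and 23.3 in WT. The gene past 2-fold was *ETC1*, named after its value was seen, with 7.11 in *agl62* seeds (23 to 28 counts) and 1.63 in WT seeds (2 to 7 counts), a log2 ratio of 2.125 with a wide counting interval of 0.561 to 3.689. Against the floor of 3 the *agl62* mean of *ETC1* was at least 2.37-fold higher, and it was no longer past 2-fold with a pseudocount of 10 or among genes averaging at least 10.

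In the WIP and MADS-box families none of the 8 genes with reads among 10 differed 2-fold, which is near the background of 6.79%. A mean above the floor of 3 was reached by 7 of the 8. The median log2 ratio of the 7 with both means at least 10 was 0.012. *STK*, the ovule identity gene that acts with TT16 in the endothelium, averaged 38400 normalized counts in *agl62* seeds and 47500 in WT seeds, a log2 ratio of -0.307 (-0.318 to -0.295). *SEP3*, a MADS-box cofactor of ovule and flower development, averaged 17800 in *agl62* and 22000 in WT, a log2 ratio of -0.306 (-0.323 to -0.289). *SHP1*, which shares the ovule identity role with *STK*, averaged 15800 in *agl62* and 14400 in WT, a log2 ratio of 0.134. These MADS-box genes thus lay on both sides of *TT16*, whose own ratio was -0.081. *WIP2* averaged 185 in *agl62* seeds and 122 in WT seeds, a log2 ratio of 0.601 (0.399 to 0.803), while its relative *TT1* was slightly lower in *agl62*.

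For the genes of mucilage and of the seed coat epidermis, where TTG1, TTG2 and GL2 act, 1 of the 16 with reads among 17 differed 2-fold, a share near the 6.79% of all genes with reads. The 15 with both means at least 10 had a median log2 ratio of -0.023, or 0.025 with the columns scaled to equal totals. *SBT1.7*, a subtilase of mucilage release, averaged 53300 normalized counts in *agl62* seeds and 52800 in WT seeds, and *LUH*, a transcriptional corepressor, 12400 in *agl62* and 12500 in WT. *MUM4*, the rhamnose synthase gene that GL2 is known to activate, averaged 7990 in *agl62* seeds and 8790 in WT seeds, a log2 ratio of -0.138 (-0.164 to -0.112). *NARS2*, a NAC factor of integument development, averaged 973 in *agl62* and 753 in WT, a log2 ratio of 0.37. The gene past 2-fold was *MUM2* (AT5G63800, chromosome 5, 25530055 to 25535889), the beta-galactosidase that makes mucilage able to swell. *MUM2* averaged 32.7 in *agl62* seeds, from 104 to 128 counts, and 357 in WT seeds, from 488 to 1475 counts, which is 10.9-fold lower in *agl62* (log2 ratio -3.449, -3.731 to -3.166). No other gene overlaps its annotated span, and none of its stretches of 100 bases recurs in the genome. *MUM2* lies on the same chromosome as *AGL62*, whose annotated start follows base 24305380. What part this position has in the *MUM2* values was not tested.

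**Figure D4:**
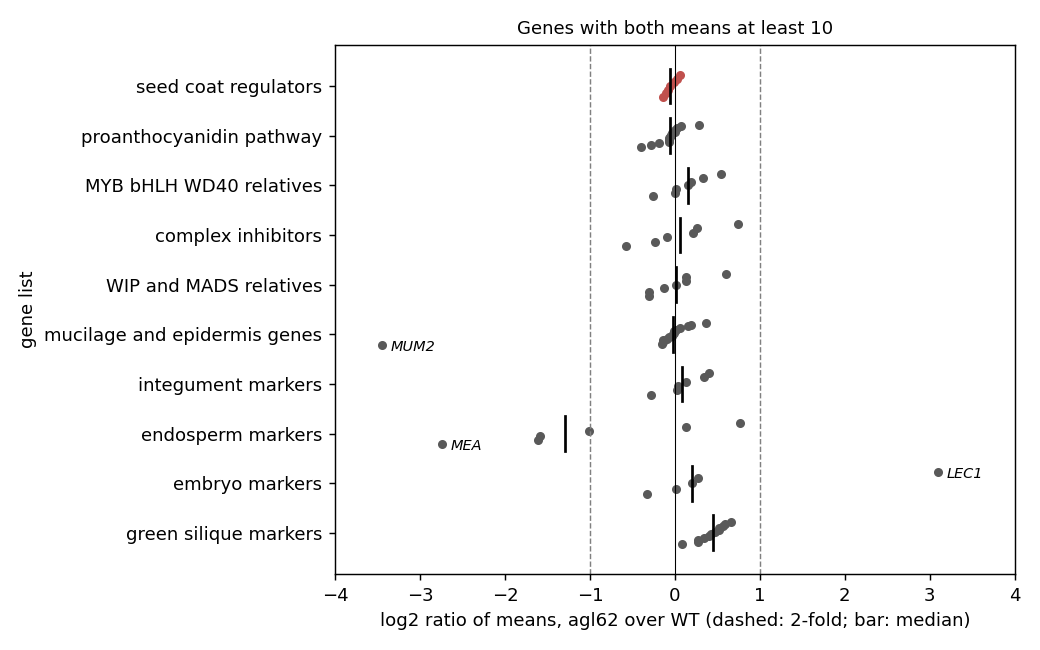
Log2 of *agl62* over WT means (horizontal axis) for every gene with both means at least 10, by gene list (vertical axis). Points are genes, short bars are list medians and dashed lines mark 2-fold. The 7 regulators and the 14 pathway genes both have a median of -0.053, *MUM2* stands at -3.449, the endosperm markers have a median of -1.298 and the green silique markers one of 0.45.

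Marker lists show what else differed between the seed samples. Of the 6 integument markers none differed 2-fold, the median log2 ratio was 0.088 and their means summed to 12900 in both *agl62* and WT. *INO*, the outer integument gene, averaged 3180 normalized counts in *agl62* seeds and 3850 in WT seeds, *UCN* 6680 in *agl62* and 6550 in WT, *ANT* 342 in *agl62* and 269 in WT, and *BEL1*, which sets integument identity, 1600 in *agl62* and 1210 in WT. The tissue that bears the regulators was thus represented by its markers in both genotypes. Of the 11 endosperm markers 6 were past 2-fold lower in *agl62* and 2 past 2-fold higher, beside 3.41% lower and 3.39% higher over all genes with reads, with a median log2 ratio of -1.298 over the 6 with both means at least 10. *FWA* averaged 358 in *agl62* seeds and 720 in WT seeds, *PHE1* 98.6 in *agl62* and 302 in WT, and *MEA* 49.8 in *agl62* and 333 in WT. The *FWA* log2 ratio of -1.008 was only just past 2-fold, and the shift of 0.048 with equal totals takes it under. The 2 higher ones, named after their values were seen, were *ZOU*, with 68.3 in *agl62* and 0.326 in WT, and *AGL90*, with 9.4 in *agl62* and listed at 0 in WT. Since the sugar transporter gene *SUC5* (14800 in *agl62*, 13500 in WT) dominates the sum of the list, that sum was 15600 in *agl62* and 15200 in WT. Of the 6 embryo markers 1 was higher and 1 lower past 2-fold, with a sum of 5400 in *agl62* and 5100 in WT, of which *YDA* made up 4990 in *agl62* and 4960 in WT. The higher one was *LEC1*, with 325 in *agl62* seeds and 38 in WT seeds, while *WOX8* averaged 40.6 in *agl62* and 33.6 in WT and *WOX2* 16 in *agl62* and 20 in WT. The lower one, *SSP*, averaged 3.54 in *agl62* and 26.3 in WT and was named after its value was seen. All 12 photosynthesis genes used as markers of green silique tissue were higher in *agl62*, none of them 2-fold, with a median log2 ratio of 0.45 and a sum of 109000 in *agl62* and 76500 in WT. The counting interval excluded 0 for 11 of them and included it for *RBCS2B* (log2 ratio 0.08, -0.355 to 0.516). How many of all genes were higher in *agl62* was not computed, and their median was 0.009 where both means reached 10. *RBCS1A* averaged 37100 in *agl62* seeds and 23500 in WT seeds, *LHCB1.3* 23500 in *agl62* and 17500 in WT, *PSBO1* 13900 in *agl62* and 10000 in WT, and *RCA* 6900 in *agl62* and 4580 in WT. What part the endosperm, the embryo or green tissue had in the values of the regulators was not tested.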

How the data were processed

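Messenger RNA of *agl62* and WT seeds was sequenced as 100 bp paired end reads (TruSeq RNA kit, HiSeq2000). According to the submitters' processing notes and the study's methods, the authors aligned the reads to TAIR10 with TopHat, kept those that mapped uniquely and used DESeq. The counting tool, the annotation, the strand setting, the software versions and the unit counted (single reads or pairs) are not given in the sources used here. Each deposited signal value is a mean over the 3 libraries of 1 genotype, which the authors took after scaling counts by size factors. It was written to 3 significant digits, a rounding that moves a log2 ratio of the regulators by at most 0.0077. Another 4 columns hold the authors' own comparison (fold change, its log2, p-value and adjusted p-value) and were not used. All 6 libraries enter the 2 means, so the count models planned for single libraries could not be fitted.

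The log2 ratio of *agl62* over WT was taken with no pseudocount. For 2-fold counts means under 3 were raised to 3, and genes with neither mean above 3 were not counted as past it. Relative depth came from means under 1, which are whole-number sums of what 1 count adds to the mean. All 1737 such means were sums of 0.256, 0.291 and 0.315 in *agl62*, and all 1522 were sums of 0.242, 0.326 and 0.731 in WT. Poisson intervals at 95% followed from these. The estimates were tested first on simulated Poisson counts, at depths close to those found here. That simulation had no spread between replicates, so it could not check the intervals against replicate error. The regulators and lists were chosen with earlier results of these data known. Named genes were the 7 regulators, *AGL62* and, in each list (14 proanthocyanidin pathway genes, 17 relatives of the complex, 9 repressors, 10 WIP and MADS-box genes, 17 mucilage and epidermis genes, and integument, endosperm, embryo and green silique markers), the 3 with the highest means and the 2 with the largest ratio among those with both means at least 10. Relatives named for their level and pathway genes named for their role or after their value was seen, such as *GL3*, *GOA*, *LDOX* or *FLS1*, are outside this rule. RefSeq's TAIR10.1 annotation matched 31912 of the 32678 identifiers and gave lengths, coordinates and sequences. Alternatives were pseudocounts of 1 and 10, equal column totals, centring on the median, a fold of 1.5, a filter of 10, and length by coding sequence. The genes averaging at least 1000, the floor of 3, the pairs of regulators and the counting intervals with equal totals were added after seeing the data. Values were computed with pandas 2.3.3 and numpy 2.4.6 under Python 3.11.15, and plots drawn with matplotlib 3.10.9.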

Additional observations from a re-analysis of the deposited data

How the results depend on the processing

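With the 2 columns scaled to equal totals, every log2 ratio shifted by 0.048. The median of the 7 regulators was then -0.004 in place of -0.053. *TT2* stood at -0.096, *TT8* at 0.106, *TTG1* at 0.079, *TT16* at -0.033, *TTG2* at -0.004 and *GL2* at 0.033. The number of mucilage and epidermis genes past 2-fold became 2 in place of 1, since *PMEI6* passed. With a fold of 1.5 the counts were 2 for the repressors, 2 for the mucilage and epidermis genes and 1 for the WIP and MADS-box genes, in place of 1, 1 and 0. The 1 repressor past 2-fold was lost, giving 0, with a pseudocount of 10 and with a mean of at least 10. Per kilobase of coding sequence the highest regulator was 2.92 times the lowest in *agl62*, in place of 2.7. The other 55 of the alternative values stayed within the counting interval or within 1.5 times the count, and none of the regulators passed 2-fold under any alternative run.

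No paired analysis was possible because only 1 mean per genotype is given. For the same reason DESeq2, TMM scaling, a filter on the counts of single libraries, leaving out a replicate and the replicate block were not run. WT held the shallowest library (relative depth 0.456), and no regulator was limited by depth, since even the *TT1* mean in WT rests on at least 2640 counts. What limits every value is the missing spread between replicates.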
